A study of Homo sapiens with 5 samples.

Results

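The 10 genes described here are immediate early genes: FOS (ENSG00000170345), JUN (ENSG00000177606), ATF3 (ENSG00000162772), EGR1 (ENSG00000120738), EGR3 (ENSG00000179388), KLF6 (ENSG00000067082), NR4A1 (ENSG00000123358), MYC (ENSG00000136997), MCL1 (ENSG00000143384) and IER3 (ENSG00000137331). They were taken by Ensembl identifier from a fixed list, and all 10 had a row among the 20001 rows with an identifier in the count table. Their nascent transcription was measured by PRO-seq, in which engaged RNA polymerases add biotin-labelled nucleotides in a run-on reaction, so that the reads mark transcription under way. The cells were HEK293T, an established human embryonic kidney line that carries SV40 large T antigen, grown in medium with serum and scraped into cold buffer before nuclei were made. In each monoclonal line a landing pad, a genomic site that accepts inserted DNA, held either PGK, in 2 libraries, or CAG, in 3. PGK is the promoter of a housekeeping gene of glycolysis, and CAG is a strong composite promoter. The labels name no treatment or stimulus, and the stated purpose was to derive RNA stability together with parallel RNA-seq. The number of clones per promoter is not labelled, nor whether replicates were separate cultures. Promoter and clone therefore cannot be told apart, and the p-values here reflect a spread between libraries that may be only technical.

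Immediate early genes are those that cells switch on first after growth factors, stress or other signals, without needing new protein to do so. Signals reach them through MAP kinases and through factors already bound at their promoters, such as serum response factor with its ETS partners at CArG boxes and CREB at cyclic AMP response elements. Many of their products are transcription factors that carry the signal on to later genes, and their RNAs are typically short-lived. In growing cells without a fresh stimulus, some members are nearly silent while others, among them MYC and MCL1, are transcribed continuously.

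Library totals ran from 3712105 counts in PGK replicate 2 to 5864157 in CAG replicate 3. Levels are given as CPM, counts relative to TMM-scaled library sizes. The counts are not divided by gene length, so levels of different genes are not compared. Of the 10 members, 8 had enough counts for the test of CAG against PGK, and FOS and EGR3 did not. The identity of the cells could not be checked against marker genes, because the table pairs no identifiers with names. The strand setting and the counted part of each gene are not stated in these sources, so reads of overlapping or antisense genes may be included.

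Promoter sequence from RefSeq (GRCh38.p14, 250 bases before to 50 after each start) was at hand for 6 members: FOS, JUN, ATF3, EGR1, KLF6 and NR4A1, with 2 windows each for ATF3 and NR4A1. Exact matches were sought on both strands, and positions are counted from the start site. The stretches below show CArG boxes and TGACG, letters that also begin a cyclic AMP response element. They also show a TATA box, an EGR motif and an E-box. The stretches lie in 2 genes with few counts here (EGR1 and FOS) and 2 that were called higher in the CAG line (JUN and KLF6). Capitals mark the matched letters. Positions are those of the match, while chromosome coordinates span the printed stretch, with 6 flanking bases on each side. EGR1 holds a pair of CArG boxes, at -105 to -96 (chr5:138465368-138465389, plus strand) and at -83 to -74 (chr5:138465390-138465411):
EGR1 first CArG box: gtcctgCCATATTAGGgcttcc
EGR1 second CArG box: tgcttcCCATATATGGccatgt
FOS holds TGACG, the first letters of a cyclic AMP response element, at -64 to -60 (chr14:75278758-75278774, plus strand), and TATAAA at -33 to -28 (chr14:75278789-75278806):
FOS TGACG: agcccgTGACGtttaca
FOS TATA: gcttgtTATAAAagcagt
JUN holds TGACG at -123 to -119 (chr1:58784160-58784176, minus strand), with its last base shared with a GC box:
JUN TGACG: ccatggTGACGggcggg
KLF6 holds an EGR motif, GCGNGGGCG, at -65 to -57 (chr10:3785260-3785280, minus strand), overlapping a GC box, and an E-box, the CACGTG that MYC and its partners can bind, at -97 to -92 (chr10:3785295-3785312):
KLF6 EGR motif: agccagGCGGGGGCGgagggg
KLF6 E-box: gcgagtCACGTGggggga
Of all 35116 windows, 1.29% held a CArG box, and EGR1 was the 1 matched member that did. Sequence more than 250 bases before a start was not searched, so members without a match may hold an element there. TGACG stood in 24.6% of windows and in 3 of the 6 members (FOS, JUN and EGR1). TATAAA stood in 11.5% of windows and in FOS and ATF3. In ATF3 it lay at -230 to -225, in 1 of the 2 windows. The EGR motif stood in 9.43% of windows and in EGR1 and KLF6, and the E-box in 7.26% and in KLF6. The GC box GGGCGG stood in 45.0% of windows and in 5 of the 6 members, and the ETS core in the form CCGGAA in 17.2% and in NR4A1. Other forms of the ETS core were not sought. No member window held the full TGACGTCA (1.85% of windows) or the AP-1 motif TGANTCA (7.71%). These matches are letters in a window and say nothing of binding.

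JUN, ATF3 and KLF6 were called higher in the CAG line, by 1.16-fold, 1.28-fold and 1.31-fold, and no tested member was called lower. That is 3 of 8 tested members (edgeR's quasi-likelihood F test, adjusted p under 0.05), where 43.4% of all 13400 tested genes were called, 22.7% higher and 20.7% lower. The members' share is near that background and is not a result about them. At an unadjusted p under 0.05, edgeR had 3 members higher and 1 lower (MYC), beside 25.8% and 24.4% of all tested genes. At that threshold limma-trend had 3 higher and 1 lower, and DESeq2 had 2 higher and 0 lower. After adjustment, DESeq2 and limma-trend called 0 members lower. The CAG and PGK libraries did not overlap for 4 of the 8 tested members (KLF6, NR4A1, MYC and MCL1), where 61.2% of all tested genes did not. The median log2 fold change of the tested members was 0.19 against -0.0046 over all tested genes, and the median size was 0.19 against 0.25.

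**Figure D1:**
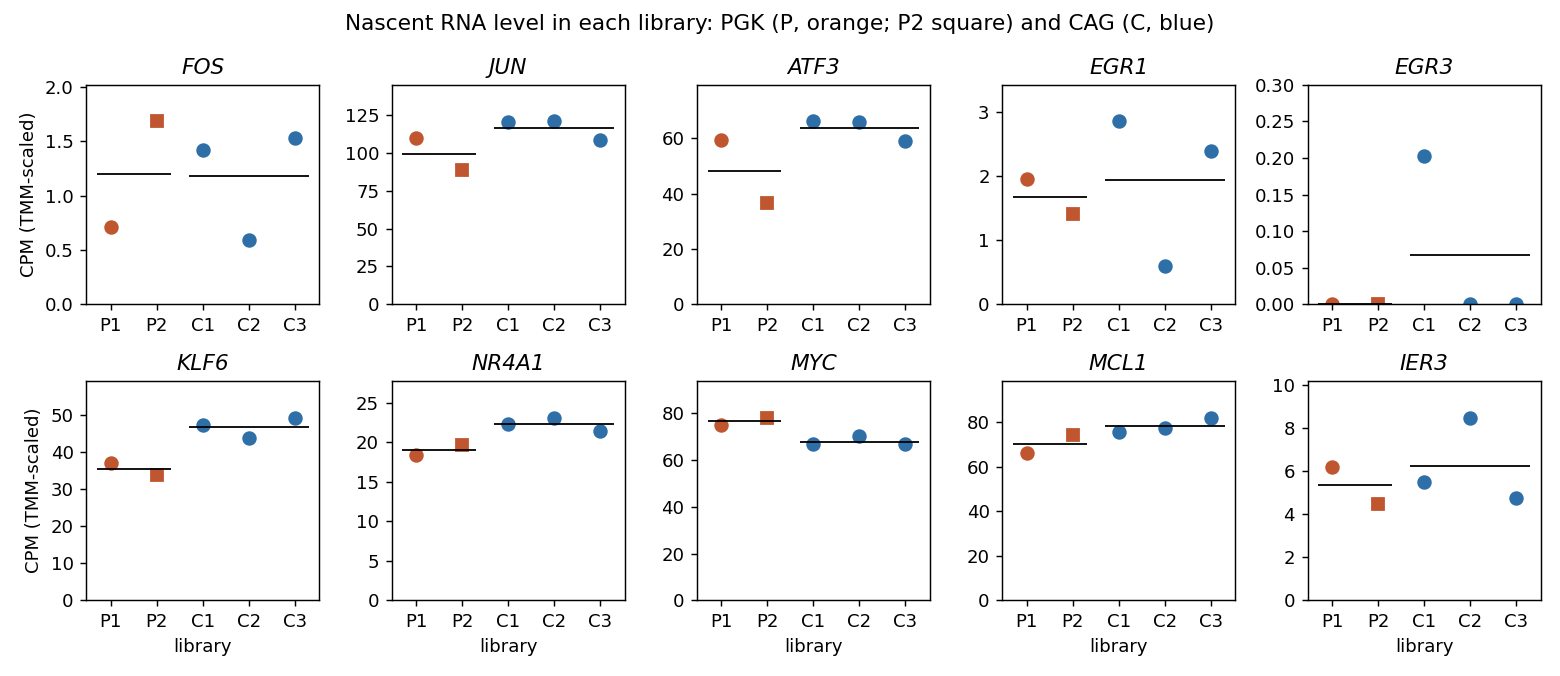
Level of each of the 10 genes in CPM (linear axis from 0, its own scale in each panel) in PGK replicates 1 and 2 (P1 and P2, orange, P2 as a square) and CAG replicates 1 to 3 (C1 to C3, blue), with the mean of each line as a bar. JUN and ATF3 were lowest in PGK replicate 2, and FOS, EGR1 and EGR3 stayed under 3 CPM in every library.

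FOS, the partner of JUN in the AP-1 dimer and the classic serum-induced gene, had few counts. It had 4 and 6 counts in PGK replicates 1 and 2 and 7, 3 and 9 counts in CAG replicates 1 to 3, or 0.709 and 1.68 CPM against 1.42, 0.593 and 1.53 CPM. Both lines spanned nearly the same range, and the highest and lowest libraries lay in different lines. The ratio of the pooled levels was 1.10, with an exact 95% counting interval of 0.488 to 2.66. Ratios inside that interval are compatible with the counts, in either direction. The interval covers counting error only.

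JUN, the other partner in the AP-1 dimer, was transcribed in every library. It stood at 110 and 88.6 CPM in PGK replicates 1 and 2 and at 121, 121 and 109 CPM in CAG replicates 1 to 3. PGK replicate 2 was the low library, and PGK replicate 1 lay above CAG replicate 3, so the lines overlapped. The mean was 99.1 ± 14.8 CPM in the PGK line (SD, n = 2) and 117 ± 6.93 CPM in the CAG line (SD, n = 3), a log2 fold change of 0.22 ± 0.08 (SE) whose adjusted p in edgeR was 0.0357. Without PGK replicate 2 the log2 fold change was 0.09 and the edgeR adjusted p 0.386. The call was also lost without CAG replicate 1 (edgeR adjusted p = 0.126), without CAG replicate 2 (0.109) and with DESeq2 (adjusted p = 0.146).

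ATF3, a stress-induced member of the ATF and CREB family that pairs with JUN, had the same low library. Its level was 59.6 and 36.7 CPM in PGK replicates 1 and 2 and 66.1, 66.1 and 59.2 CPM in the CAG replicates. PGK replicate 1 again lay just above CAG replicate 3, and PGK replicate 2 lay far below the other 4 libraries. The means were 48.2 ± 16.2 CPM in the PGK line (SD, n = 2) and 63.8 ± 3.96 CPM in the CAG line (SD, n = 3), a log2 difference of 0.35 ± 0.12 (SE; edgeR adjusted p = 0.0223). Leaving out PGK replicate 2 brought the log2 fold change to 0.10 (edgeR adjusted p = 0.490), and leaving out PGK replicate 1 raised it to 0.78 (edgeR adjusted p = 4.48e-07). The call was lost as well without CAG replicate 1 or 2 (edgeR adjusted p = 0.0602 and 0.0654) and with DESeq2 (0.0734). PGK replicate 2 was also the library with the fewest counts. With all libraries thinned to its total, the log2 fold change was 0.36 for ATF3 and 0.24 for JUN, with edgeR adjusted p of 0.0346 and 0.0361. Thinning leaves PGK replicate 2 itself unchanged, so whether its depth underlies its low values was not tested.

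**Figure D2:**
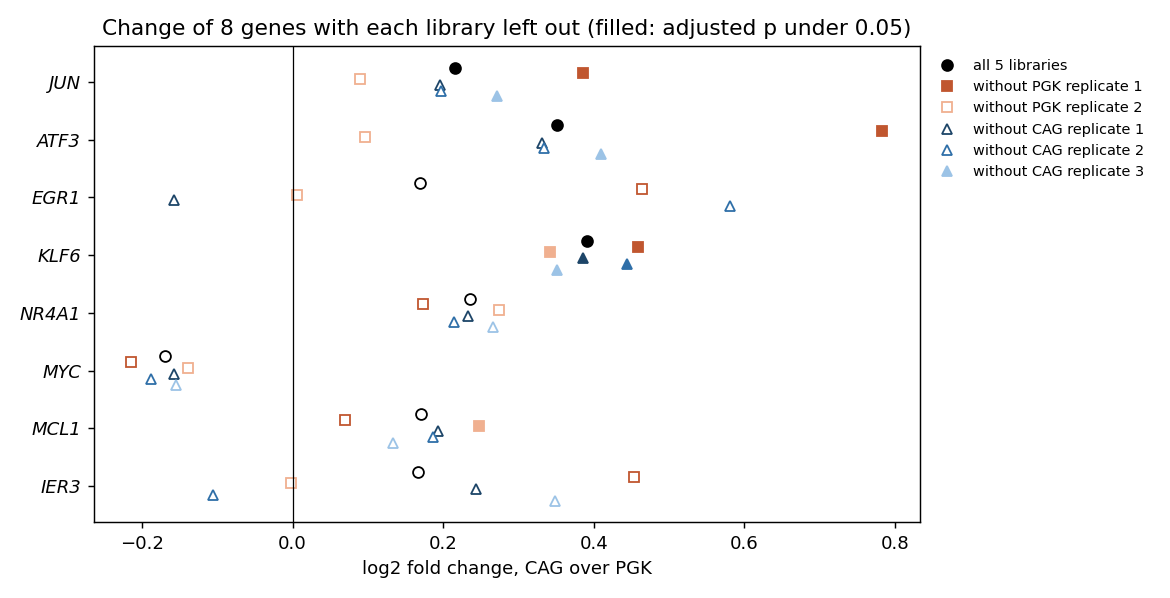
Log2 fold change of CAG over PGK (x axis) for the 8 tested genes with all 5 libraries (black circles) and with each PGK library (squares) or CAG library (triangles) left out, filled where the edgeR adjusted p was under 0.05. EGR1 has no point without CAG replicate 3, where it was not tested. With a PGK library left out, JUN stood at 0.09 or 0.39 and ATF3 at 0.10 or 0.78, whereas KLF6 was called in every case.

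EGR1, a zinc finger factor induced by serum through CArG boxes like those shown above, had few counts. PGK replicates 1 and 2 held 11 and 5 counts and the CAG replicates 14, 3 and 14. CAG replicates 1 and 3 were the 2 highest libraries, at 2.85 and 2.38 CPM, and CAG replicate 2 the lowest, at 0.593 CPM, with both PGK libraries between them. The log2 fold change was 0.17 with a 95% interval of -0.85 to 1.19 (edgeR adjusted p = 0.811), and its sign turned without CAG replicate 1, to -0.16. Without CAG replicate 3 it had too few counts to be tested.

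EGR3, the EGR family member that acts downstream of calcium and T cell signals, had 1 count in CAG replicate 1 and 0 in the other 4 libraries. A count of 0 over the PGK libraries allows up to 0.326 CPM (3 counts). Its exact 95% counting interval reaches 0.401 CPM. The 1 count over the CAG libraries is 0.0631 CPM, with an exact 95% counting interval of 0.0016 to 0.352 CPM. Both lines lay under 3 counts in all, so no fold change is given.

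KLF6, a Krüppel-like factor induced by growth signals, was higher in every CAG library than in either PGK library. It stood at 37.1 and 33.9 CPM in PGK replicates 1 and 2 and at 47.4, 43.7 and 49.3 CPM in the CAG replicates. The means were 35.5 ± 2.21 CPM (SD, n = 2) and 46.8 ± 2.86 CPM (SD, n = 3), a log2 difference of 0.39 ± 0.11 (SE; edgeR adjusted p = 0.00470). With each library left out in turn, KLF6 stayed called, with log2 fold changes of 0.34 to 0.46. DESeq2 gave an adjusted p of 0.0487.

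NR4A1, an orphan nuclear receptor of the Nur77 type, had 18.4 and 19.6 CPM in PGK replicates 1 and 2 and 22.4, 23.1 and 21.4 CPM in the CAG replicates. The CAG libraries all lay above the PGK libraries, by a small margin. The log2 fold change of 0.24 (95% interval -0.07 to 0.54) did not pass the test (edgeR adjusted p = 0.203).

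MYC, the E-box-binding factor that drives growth genes, was the 1 tested member with a lower mean in the CAG line. Its level was 74.8 and 78.2 CPM in PGK replicates 1 and 2 and 66.7, 70.2 and 66.7 CPM in the CAG replicates. The lines did not overlap, but the log2 fold change of -0.17 ± 0.08 (SE) did not pass the threshold (edgeR adjusted p = 0.0977).

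MCL1, an anti-apoptotic BCL2 family protein with a short half-life, had 66.1 and 74.3 CPM in PGK replicates 1 and 2 and 75.7, 77.1 and 82.0 CPM in the CAG replicates. The nearest libraries of the lines differed by less than the PGK replicates did. The log2 fold change was 0.17 (95% interval -0.0036 to 0.34), with an edgeR adjusted p of 0.107. Without PGK replicate 2 it was 0.25 (edgeR adjusted p = 0.0286), and without PGK replicate 1 it was 0.069 (edgeR adjusted p = 0.628).

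IER3, a small stress-response protein that modulates survival and ERK signalling, had 35 and 16 counts in PGK replicates 1 and 2 and 27, 43 and 28 counts in the CAG replicates. CAG replicate 2 was the highest library at 8.50 CPM, PGK replicate 2 the lowest at 4.49 CPM, and the other 3 lay between 4.76 and 6.21 CPM. The log2 fold change was 0.17 (95% interval -0.42 to 0.75; edgeR adjusted p = 0.672). Its sign turned without CAG replicate 2 (-0.11) and without PGK replicate 2 (-0.0019).

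As a group, the 10 members took 0.0378% and 0.0326% of the counts in PGK replicates 1 and 2 and 0.0412%, 0.0415% and 0.0397% in the CAG replicates. The CAG share was higher by 0.00562 percentage points, and an exact two-sided permutation test gave p = 0.2, the smallest that 2 against 3 libraries allow. PGK replicate 2 had the lowest share. Without it the difference was 0.00298 percentage points, and without PGK replicate 1 it was 0.00825.

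Replicates of one line differed more for some members than for most genes of like level. The SD between replicates on the log2 scale, pooled over both lines, was 0.29 for ATF3, where the 499 other tested genes nearest in mean level had a median of 0.10. That placed ATF3 above 99.8% of them. EGR1 (SD 0.77 against a median of 0.38) lay above 96.4% of its like-level genes, JUN (0.14 against 0.07) above 94.99% and IER3 (0.38 against 0.25) above 83.0%. At the other end, NR4A1 (0.06 against 0.15) lay above 5.01% and MYC (0.04 against 0.09) above 9.22%, while KLF6 stood at 36.1% and MCL1 at 51.3%. These places are descriptions of 5 libraries and were not tested.

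The PGK pair and the CAG replicates contributed differently to that spread. For ATF3, PGK replicate 1 exceeded replicate 2 by 0.69 on the log2 scale, a size above that of all 499 like-level genes, and the CAG replicates spanned 0.16, above 53.1% of them. For JUN the PGK difference was 0.31, above 96.4% of like-level genes, and the CAG range 0.15, above 70.5%. EGR1 showed the reverse, with a CAG range of 1.71 that exceeded 99.0% of like-level genes and a PGK difference of 0.38 that exceeded 35.7%. Of the 8 tested members, 5 were higher in PGK replicate 1 than in PGK replicate 2 (JUN, ATF3, EGR1, KLF6 and IER3). The share of all tested genes with that direction was not computed, so this count is not a result about the members. Lowest of all in PGK replicate 2 were 4 members (JUN, ATF3, KLF6 and IER3). PGK replicate 2 was the lowest library for 27.2% of all tested genes. What set PGK replicate 2 apart for JUN and ATF3 was not tested.

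**Figure D3:**
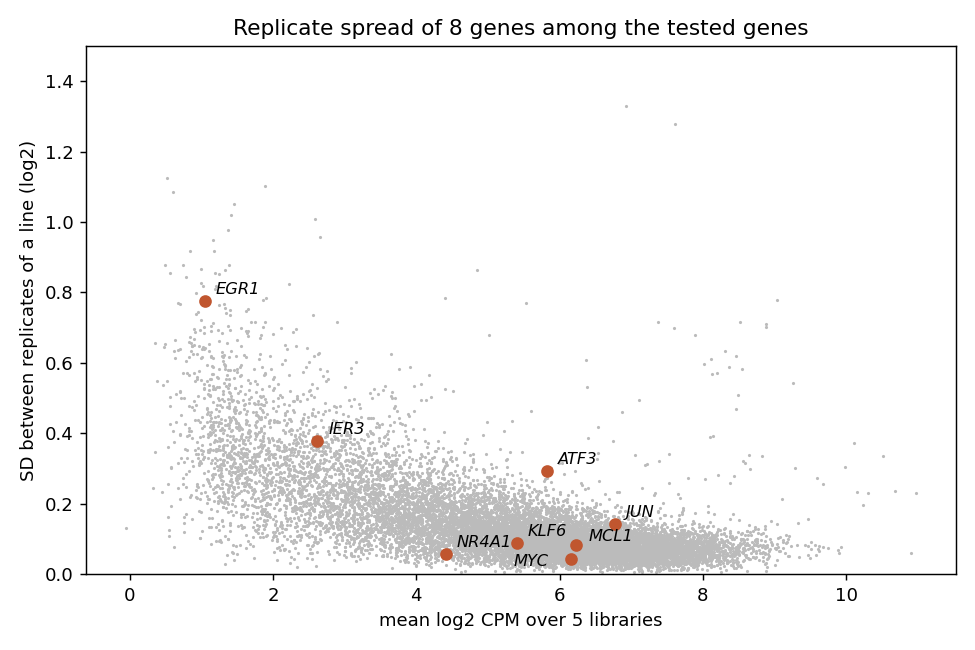
SD between replicates of a line (y axis, log2) against mean log2 CPM over the 5 libraries (x axis) for the 13400 tested genes (grey) and 8 immediate early genes (orange). ATF3, at an SD of 0.29, lies above nearly all genes of its level, and MYC, at 0.04, lies above 9.22% of its like-level genes.

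Fold changes of neighbouring rows of the table share a level, so each member was set beside the 25 tested rows before it and the 25 after it. What orders the rows is not stated. Along the rows, the 10 members stand in the order of their chromosomes and start sites in RefSeq (GRCh38.p14). The nearest 50 rows around JUN, KLF6 and MYC had medians well away from 0, although 13 of the 25 rows before JUN and 13 of the 25 before KLF6 were called higher, fewer than the 25 and 22 called after them. The nearest rows around the other 5 tested members had medians near 0.

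JUN rose far less than its row neighbours. The median log2 fold change of the 50 rows around it was 0.64, and 38 of them were called higher and 3 lower, against 0.22 for JUN. The shift was short: the median was 0.44 over the 25 rows before JUN and 0.78 over the 25 after. It was -0.07 over rows 26 to 100 before and 0.05 over rows 26 to 100 after. Raised rows still went on past the nearest 25 after JUN. Of the 75 rows 26 to 100 after, 24 were called higher and 15 lower. Relative to the mean of the 5 libraries, the neighbours stood at -0.39 and -0.38 in PGK replicates 1 and 2 and at 0.25, 0.24 and 0.27 in the CAG replicates. JUN stood at 0.01 and -0.30 in the PGK replicates and at 0.15, 0.15 and -0.0036 in the CAG replicates. When the neighbours' median was taken out as an offset, JUN was lower in the CAG line, at -0.43 on the log2 scale (edgeR adjusted p = 0.000337). This fit treats the neighbours' level as known without error, so its p-values are too small. Relative to its neighbours JUN kept that direction with each library left out, from -0.55 to -0.22, and lost the call without PGK replicate 1 (edgeR adjusted p = 0.0722). With 10 or 50 rows on each side the value was -0.53 or -0.28 (edgeR adjusted p = 2.21e-05 and 0.0122). With 100 rows, which reach well past the shifted stretch, it was 0.16 (edgeR adjusted p = 0.146).

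The change of KLF6 was close to that of the rows around it. The median of its 50 neighbours was 0.40, with 35 called higher and 1 lower, and KLF6 itself was at 0.39. With the neighbours' level taken out, the log2 fold change of KLF6 was -0.0049 (edgeR adjusted p = 0.981), and it was not called with 10, 50 or 100 rows on each side. The rise of KLF6 was thus not distinguishable from that of its row neighbourhood.

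MYC lay above the lowered rows around it. The median of its 50 neighbours was -0.40, with 33 called lower and 3 higher, and MYC was at -0.17. Relative to the neighbours it was higher in the CAG line by 0.23 (edgeR adjusted p = 0.0377). That call depended on the window and the libraries. Wider windows took in less lowered rows, with medians of -0.02 over rows 26 to 100 before MYC and -0.30 over those after. The value was 0.32 with 10 rows (edgeR adjusted p = 0.00433), 0.12 with 50 rows (0.304) and 0.01 with 100 rows (0.915), and leaving out PGK replicate 1 or any single CAG library ended the call, with edgeR adjusted p of 0.0661 to 0.175.

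ATF3 had no shift around it that matched its own. Its 50 neighbours had a median of -0.03, with 6 called higher and 10 lower, and ATF3 stayed higher with this taken out (0.38, edgeR adjusted p = 0.0232). That value also rested on PGK replicate 2 and was 0.08 without it (edgeR adjusted p = 0.634). It lost the call without CAG replicate 1 or 2 (edgeR adjusted p = 0.0658 and 0.0893) and with 100 rows on each side (0.25, edgeR adjusted p = 0.122). A raised stretch lay 26 to 100 rows after ATF3, with a median of 0.46. At the same distance, the rows after EGR1 had a median of -0.44 (47 of 75 called lower) and those before IER3 a median of 0.43 (48 of 75 called higher). For EGR1, NR4A1, MCL1 and IER3 the medians of the nearest 50 rows lay between -0.0058 and -0.0013, and none of these 4 was called with the neighbours' level taken out. MCL1 passed with 10 rows on each side (0.24, edgeR adjusted p = 0.0385), with 100 rows (0.24, 0.0297) and without PGK replicate 2 (0.28, 0.0239).

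**Figure D4:**
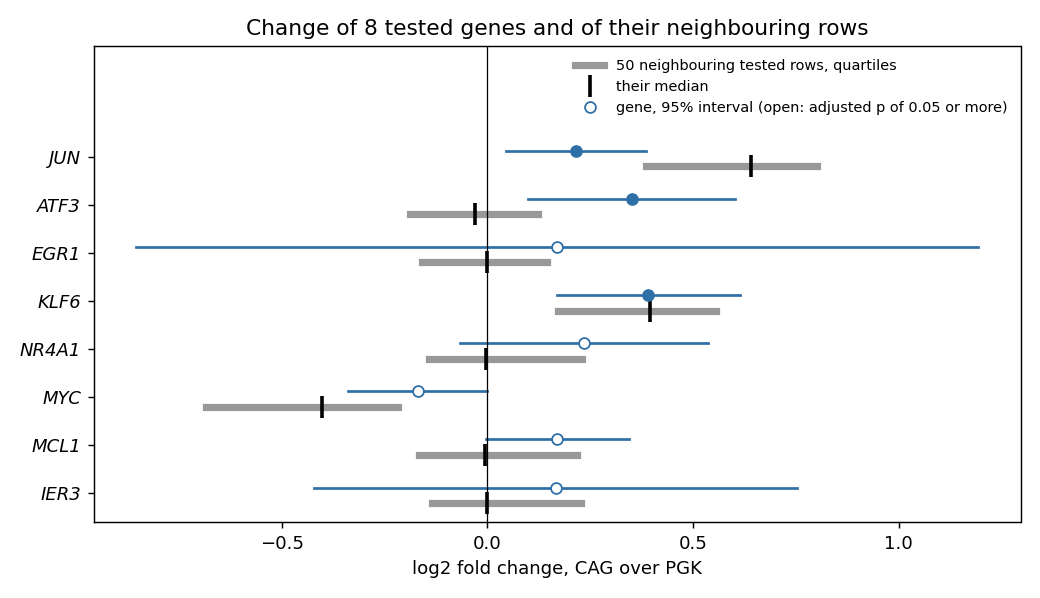
Log2 fold change of CAG over PGK for 8 genes with 95% intervals (blue circles, filled where the edgeR adjusted p was under 0.05), beside the median (black tick) and quartiles (grey bar) of the 50 neighbouring tested rows. JUN, at 0.22, lies left of its neighbours' median of 0.64, KLF6 lies on it and MYC, at -0.17, lies right of -0.40.

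**Figure D5:**
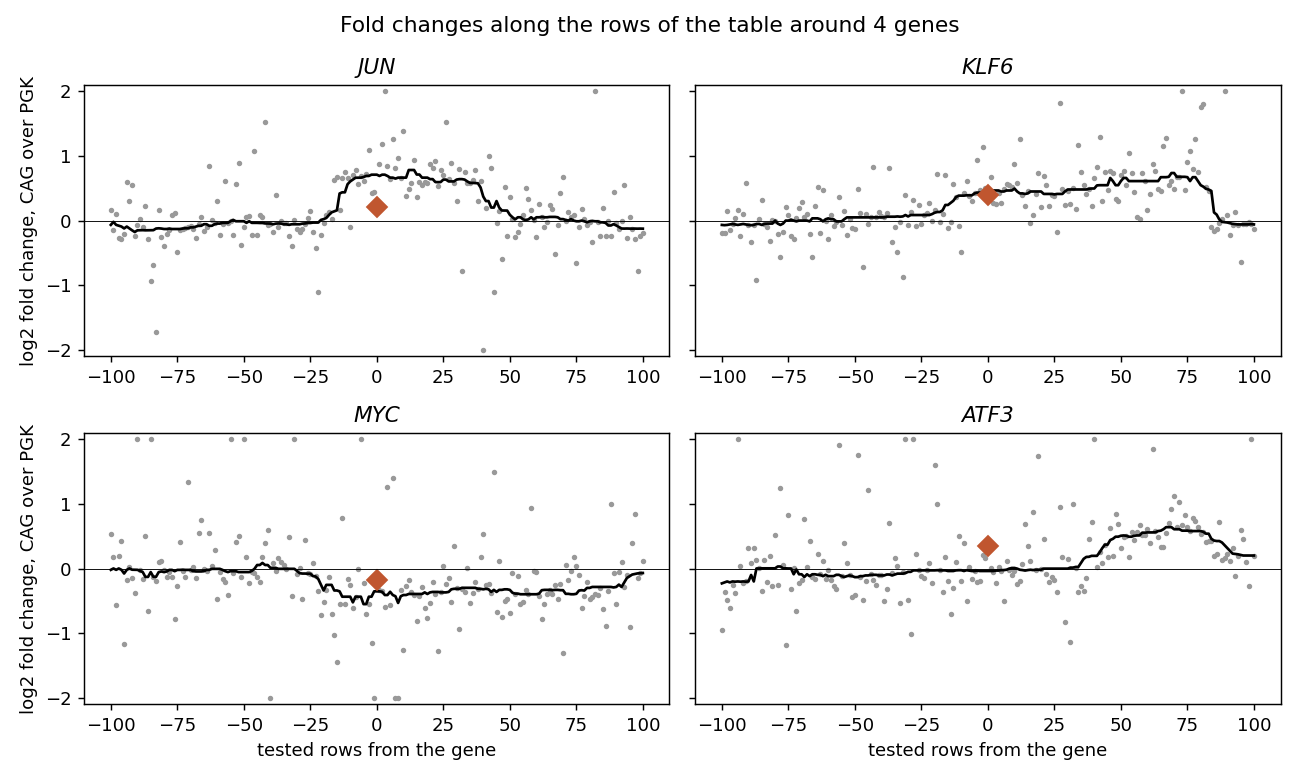
Log2 fold change of CAG over PGK (y axis) for tested rows up to 100 before and after JUN, KLF6, MYC and ATF3 (grey points, drawn at the edge where the size was over 2, which holds for 20 points), with a running median over 25 rows (black line) and the gene itself (orange diamond). JUN sits below a short raised stretch, KLF6 on a raised one, MYC above a lowered one, and ATF3 above a stretch near 0.

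The tested gene of at least 20 CPM whose pattern over the 5 libraries was nearest to that of JUN was ENSG00000081760, at a Euclidean distance of 0.0334 on the log2 scale after centring each gene. In all, 328 genes of at least 20 CPM lay within 0.2 of JUN, so the named gene was not its only near match. No likeness is given for FOS, which was not tested, or for EGR1, whose few counts cannot be set against genes of at least 20 CPM.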

How the data were processed

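The authors deposited raw counts per Ensembl gene for 5 PRO-seq libraries. The submitters' processing notes name featureCounts 2.0.3, UMI-tools, HISAT2 2.2.1, Bowtie2 2.5.1, cutadapt and fastp 0.23.2, and build hg19, without their roles. Groups and replicate numbers came from sample titles. Gene symbols of the 10 members came with the fixed list of identifiers, and members and lists were chosen with earlier results of these data known. The 18 rows without identifier (at most 25 counts per library) were left out. Genes passing edgeR's filterByExpr (minimum count 10, minimum total 15; 13400 of 20001, holding at least 99.8% of each library) were scaled by TMM and tested by edgeR's quasi-likelihood F test (edgeR 4.0.16, R 4.3.3), with Benjamini-Hochberg adjustment over all 13400 and calls under 0.05. Standard errors are absolute log2 fold changes divided by the root of F. Log2 CPM used a prior count of 2. All members are named. For JUN the nearest gene by pattern was named too. The test was tried on simulated counts. Alternatives were other size factors, DESeq2 1.42.0, limma-trend (limma 3.58.1), other filters, glmTreat, thinning, a replicate block, a row-neighbourhood offset and leaving out libraries. The 7 lists of related genes and the cell markers needed names that the table does not pair with identifiers and were not analysed here. Same-numbered replicates of the lines deviated together at r = 0.04 and -0.07 across genes, so the numbers were not taken as pairs.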

Additional observations from a re-analysis of the deposited data

Results flagged for a closer look

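The rows without a gene identifier, which no comparison used, held 95 counts over the 5 libraries, above the 3 counts that a count of 0 allows. No line had 4 libraries, so no library was tested for standing apart.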

How the results depend on the processing

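The window sizes of 10, 50 and 100 rows and the neighbourhood fits without a library were chosen after seeing the data. DESeq2 called 1 member in place of 3, with log2 fold changes of 0.22 for JUN and 0.38 for ATF3, neither of them called. Testing against 0.5 (glmTreat), a stricter hypothesis, called 0 members (0 at an unadjusted p under 0.05) with JUN at 0.22, ATF3 at 0.35 and KLF6 at 0.39, and 1145 of all genes. Taking out the row-neighbourhood level gave 3469 genes and turned JUN to -0.43, KLF6 to -0.0049 and MYC to 0.23, since the shared level no longer counted. Beyond that level, JUN turned to 0.16 with 100 rows, and KLF6, never called, ran from -0.10 to 0.16, with 0.044 for 50 rows and 0.16 for 100. Its values without a library ran from -0.10 to 0.10 (0.10 without PGK replicate 1, 0.032 without CAG replicate 2). EGR1 was at -0.16 without CAG replicate 1 and IER3 at -0.11 without CAG replicate 2. With 1 library left out, 1 to 3 members were called (1 without CAG replicate 1 or 2), out of 4754 to 5689 genes. The log2 fold change then ran from 0.090 to 0.39 for JUN, 0.10 to 0.78 for ATF3, -0.16 to 0.58 for EGR1, -0.11 to 0.45 for IER3, 0.069 to 0.25 for MCL1, 0.34 to 0.46 for KLF6, 0.17 to 0.27 for NR4A1 and -0.21 to -0.14 for MYC. Where 1 PGK library was left, its spread was taken to equal that of the CAG line. The members' share differed by 0.00298 to 0.00825 percentage points. With the replicate number as a block, 3 members were called (JUN 0.28, ATF3 0.45, KLF6 0.36) out of 4667 genes, and no member's call changed. The counts of all genes called under the other alternatives stayed within 1.5 times of 5818. EGR1 was untested where every library had to reach 1 CPM and without CAG replicate 3. Depth limits FOS, EGR1 and EGR3, for which only large changes could have been seen. Results for the 7 lists of related genes were not run.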
